A study of Danio rerio with 12 samples.

Results

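The cyp1 genes cyp1a and cyp1c1 encode haem-containing monooxygenases of the cytochrome P450 superfamily. They were represented by each probe set that carried either symbol in the array annotation, which gave 4 of 15502 probe sets after control probes were set aside, for 2 of 8793 named genes. The gene cyp1a had 1 probe set and cyp1c1 had 3, called here bright, middle and dim after their mean signal. The probe set of cyp1a and the bright and middle ones of cyp1c1 passed the filter on low signals and were tested among 11626 probe sets. The dim one had a mean log2 signal of 6.3 against a filter value of 6.37 and was fitted only without that filter.

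Pools of about 30 whole larvae of a commercial wild-type zebrafish stock were collected at 96 hours post fertilisation, and RNA of each library was hybridised to 1 single-colour Affymetrix array. The medium held the chemicals, in dimethylsulfoxide (DMSO), between 72 and 96 hours, with 72 hours taken as the start of exposure. By title, 3 libraries each had received the solvent DMSO (0.1%), 17beta-estradiol (E2, 0.1 µM), the dioxin 2,3,7,8-tetrachlorodibenzo-p-dioxin (TCDD, 1 nM) or both compounds (E2+TCDD, at the same concentrations). Each library also has a description that holds a number and a letter, such as W248C. Letter C marks replicate 1 of each title and letter B marks the other 8 libraries; the letter is treated as the batch, which is an inference.

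TCDD is a ligand of the aryl hydrocarbon receptor (AHR), a transcription factor held in the cytoplasm by chaperones. After binding a ligand it pairs with ARNT in the nucleus and binds response elements near its target genes, of which the cyp1 genes are the classical examples. In zebrafish the receptor Ahr2 carries most of the response to TCDD, and cyp1a is induced in vessels, liver, gut and skin. The cyp1c genes are found in fish and have no counterpart in the human genome.

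Titles and expression disagreed in letter B, so every group is named with the label it rests on. Grouping by number uses label text alone: a letter B library takes the exposure titled for the letter C library that has its number. That assignment covers 8 libraries, 2 per exposure, and leaves out 4 letter B libraries, W357B, W358B, W362B and W365B. Libraries with 1 number may stem from 1 RNA extract, so the spread between them, and every p-value here, may measure arrays rather than pools. The numbering was also known to follow cyp1a before these fits were made. The p-values of the cyp1 genes by number, and those in the 6 libraries titled DMSO or E2+TCDD, are therefore not separate evidence for the grouping. The size of a change is given by its log2 difference.

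In letter C, where titles and numbers coincide, the signal of cyp1a was 381.6 in the library titled DMSO 1, 414.7 in E2 1, 21109.4 in TCDD 1 and 23173.2 in E2+TCDD 1. In letter B it was 329.4 in DMSO 2 (W248B), 413.4 in DMSO 3 (W249B), 21022.5 in E2 2 (W252B) and 21650.5 in E2 3 (W255B). It was 323.8 in TCDD 2 (W357B), 263.9 in TCDD 3 (W358B), 20170.0 in E2+TCDD 2 (W362B) and 21509.5 in E2+TCDD 3 (W365B). In all, 6 libraries were high and 6 low, and nothing lay between 414.7 and 20170.0. Both titles E2 and TCDD held high and low libraries, whereas DMSO and E2+TCDD did not overlap.

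The bright cyp1c1 probe set parted the libraries in the same way. Its signals in letter C were 92.6 (DMSO 1), 93.2 (E2 1), 2102.8 (TCDD 1) and 2560.2 (E2+TCDD 1). In letter B they were 98.4 (DMSO 2), 94.4 (DMSO 3), 3690.4 (E2 2) and 3222.5 (E2 3), then 118.3 (TCDD 2), 78.2 (TCDD 3), 2982.7 (E2+TCDD 2) and 3014.5 (E2+TCDD 3). The lowest high value was 17.8 times the highest low value, against 48.6 times for cyp1a. The 4 high libraries of letter B all exceeded both high libraries of letter C.

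The middle cyp1c1 probe set was more scattered. It read 47.0 (DMSO 1), 33.2 (E2 1), 744.7 (TCDD 1) and 1433.2 (E2+TCDD 1) in letter C. In letter B it read 7.5 (DMSO 2), 25.2 (DMSO 3), 459.2 (E2 2) and 517.1 (E2 3), then 24.8 (TCDD 2), 32.4 (TCDD 3), 650.5 (E2+TCDD 2) and 569.3 (E2+TCDD 3). The same 6 libraries were high, the lowest of them at 9.77 times the highest of the rest. Here the order of the letters was turned, since both high libraries of letter C exceeded all 4 of letter B.

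The dim cyp1c1 probe set ranged from 15.6 in E2 1 to 118.7 in E2+TCDD 1. It lay between 73.1 and 118.7 in the 6 libraries with high cyp1a and between 15.6 and 62.0 in the others. Its widest gap by ratio lay elsewhere, between 15.6 in E2 1 and the next value of 29.9. How many probe sets part the libraries in this way was not counted. Titled groups gave 56.2 ± 5.52 for DMSO and 104.3 ± 12.7 for E2+TCDD (SD, n = 3 each), a far smaller step than in the other probe sets of the gene. Without the filter on low signals its difference was 0.73 on the log2(signal + 16) scale in the 6 libraries titled DMSO or E2+TCDD (SE 0.16, limma adjusted p = 0.0764), which did not pass. The annotation gives the middle and dim probe sets the same source sequence. Which stretch or strand of the transcript each probe set reads was not analysed here.

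**Figure D1:**
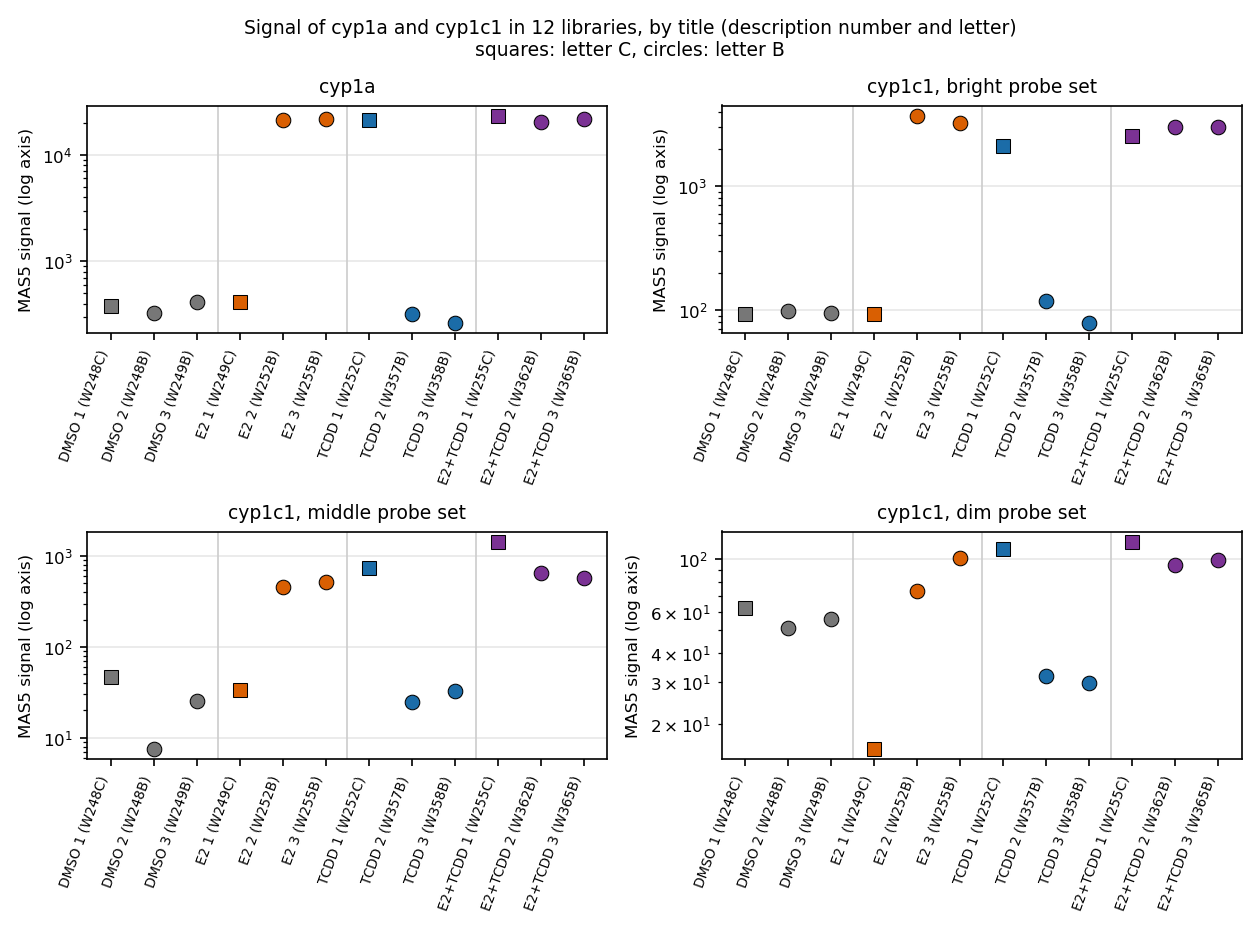
MAS5 signal (log axis, a separate range in each panel) of the 4 probe sets in each of the 12 libraries, ordered by title with the description number and letter in parentheses. Squares are letter C and circles letter B, each point is 1 array, and E2 2, E2 3, TCDD 1 and the E2+TCDD libraries are the 6 high ones in the panels of cyp1a, the bright cyp1c1 probe set and the middle one.

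Whether TCDD alone raised the cyp1 genes was compared first by number. The signal of cyp1a went from 355.5 ± 36.9 under DMSO to 21066 ± 61.4 under TCDD (SD, n = 2 each), a log2 rise of 5.83 (SE 0.09, 95% interval 5.63 to 6.03, limma adjusted p = 1.91e-15), or 56.9-fold on the log2(signal + 16) scale. For cyp1c1, the bright probe set went from 95.5 ± 4.1 to 2897 ± 1120 and rose by 4.65 (SE 0.17, 95% interval 4.3 to 5.01, limma adjusted p = 1.22e-10). The middle cyp1c1 probe set went from 27.25 ± 27.9 to 602.0 ± 202 and rose by 3.97 (SE 0.25, limma adjusted p = 1.61e-07). All 3 tested members rose, in a comparison where 1.28% of all probe sets passed upward, 0.378% downward and 1.66% in either direction. The filter had a part in this count. The middle cyp1c1 probe set passed it through its 6 high libraries, the others being at most 47.0 against a filter signal of 66.5. The dim one was removed by it, so the count is not separate support. By size of the rise cyp1a and the bright cyp1c1 probe set stood 1st and 2nd of 11626, and the middle one 4th.

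The TCDD response in the presence of E2 used other libraries, E2+TCDD against E2 by number, and gave similar sizes. There cyp1a rose by 5.7 (SE 0.09, limma adjusted p = 2.65e-15), from 414.0 ± 0.919 to 22412 ± 1080 (SD, n = 2 each). The bright cyp1c1 probe set rose by 4.72 (SE 0.17), from 93.8 ± 0.849 to 2891 ± 468, and the middle one by 4.29 (SE 0.25), from 29.2 ± 5.66 to 975.2 ± 648. All 3 tested members rose here too, where 0.43% of probe sets passed upward, 0.267% downward and 0.697% in either direction. The same limit from the filter holds for this count. Against DMSO, with which TCDD alone was also compared, E2+TCDD by number gave 5.92 (SE 0.09) for cyp1a, 4.7 (SE 0.17) for the bright cyp1c1 probe set and 4.51 (SE 0.25) for the middle one, where 0.852% of probe sets passed upward, 0.318% downward and 1.17% in either direction.

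Whether E2 changed the level or the induction of the cyp1 genes was asked with 3 further comparisons by number, and none passed for a member. For E2 against DMSO, cyp1a differed by 0.21 (95% interval 0.01 to 0.42, limma unadjusted p = 0.0379, adjusted p = 0.999), the bright cyp1c1 probe set by -0.02 (-0.37 to 0.33) and the middle one by 0.23 (-0.31 to 0.76). With TCDD present in both groups, E2+TCDD over TCDD was 1.06-fold for cyp1a (95% interval 0.925 to 1.22), 1.03-fold for the bright cyp1c1 probe set (0.807 to 1.32) and 1.46-fold for the middle one (1.01 to 2.12, limma unadjusted p = 0.0463, adjusted p = 0.978). In that comparison 0.0086% of probe sets passed, namely 1 probe set of cyp19a1b, with a rise of 1.93 (SE 0.2, limma adjusted p = 0.00124). Its 6 low libraries read 36.1 to 70.1, mostly under the filter signal of 66.5, so it passed the filter mainly through its high ones. The grouping was also chosen with earlier results known, and this p-value is not separate evidence of an estrogen effect.

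In letter C alone, E2+TCDD 1 over TCDD 1 was 1.1 for cyp1a, 1.22 for the bright cyp1c1 probe set and 1.92 for the middle one. In letter B, W255B over W252B gave 1.03, 0.873 and 1.13, so the direction for the bright cyp1c1 probe set was not kept between letters. The interaction of E2 and TCDD was -0.13 on the log2 scale for cyp1a (-0.41 to 0.16), 0.07 for the bright cyp1c1 probe set (-0.43 to 0.56) and 0.32 for the middle one (-0.44 to 1.08). No probe set on the array passed that interaction by limma (0.0%, with 596 at an unadjusted p under 0.05), while 4 passed without E2 2 and 1 without E2 1. The tested probe set of cyp19a1b, the brain aromatase gene and a P450 gene induced by estrogens, rose by 2.26 under E2 (SE 0.2, limma adjusted p = 1.52e-04). In that comparison 0.0172% of probe sets passed, and the limit from the filter given above holds here too. By title the difference of this probe set was 0.71 (SE 0.79, limma adjusted p = 0.888). The other probe sets of cyp19a1b were too dim to test. From DMSO to E2 by number, 1 went from 10.2 ± 7.64 to 25.25 ± 4.03 (SD, n = 2 each). A further one stayed near its level, with 54.6 ± 5.23 and 57.35 ± 7.42.

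The order of the mean levels of cyp1a by number was thus DMSO, E2, TCDD and E2+TCDD. Neither E2 against DMSO nor E2+TCDD against TCDD passed the test. For the bright cyp1c1 probe set the groups without TCDD had 95.5 (DMSO) and 93.8 (E2), and those with it 2897 (TCDD) and 2891 (E2+TCDD), and inside each pair the difference of the means was smaller than the larger SD.

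**Figure D2:**
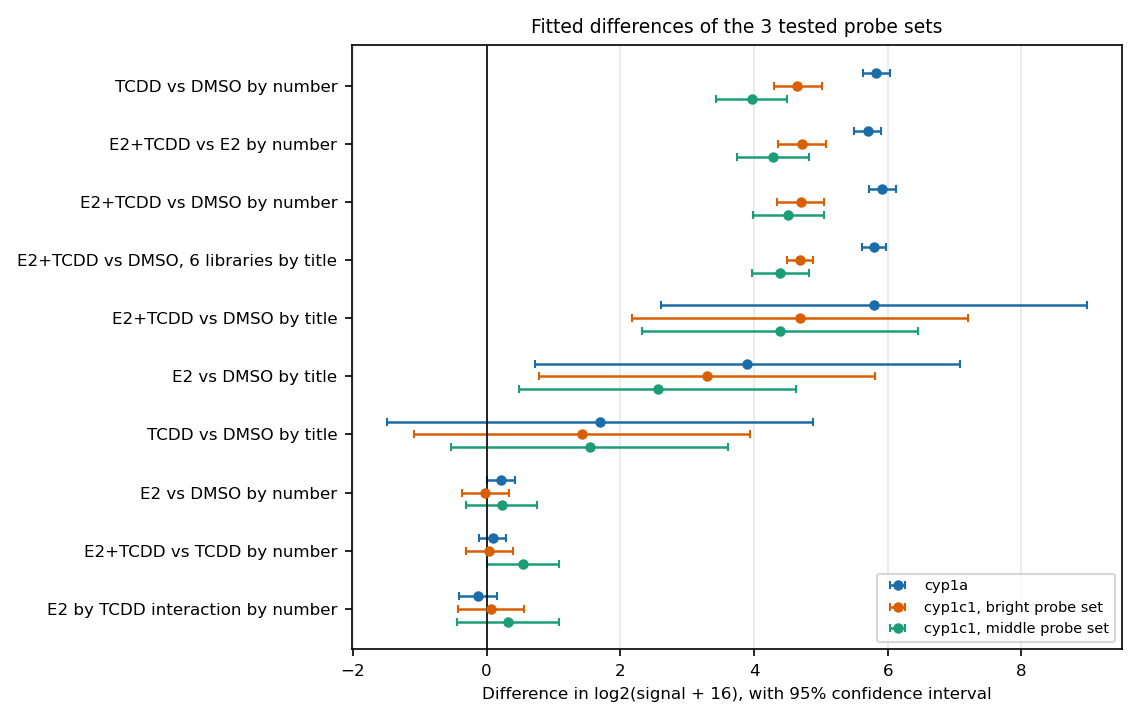
Fitted differences in log2(signal + 16) of the 3 tested probe sets, with 95% confidence intervals, for 10 comparisons named by exposure and by the label used for grouping. The comparisons of TCDD-treated with TCDD-free libraries by number, and of E2+TCDD with DMSO in 6 libraries, lie between 3.97 and 5.92. The E2 comparisons by number, with the interaction, lie between -0.13 and 0.55, and none passed. Intervals above 0 among them are those of cyp1a for E2 against DMSO and of the middle cyp1c1 probe set for E2+TCDD against TCDD.

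With titles as groups and all 12 libraries in the fit, neither gene passed in any comparison. For E2+TCDD against DMSO the difference was 5.79 for cyp1a (SE 1.48, limma adjusted p = 0.146), 4.69 for the bright cyp1c1 probe set (SE 1.17, adjusted p = 0.143) and 4.39 for the middle one (SE 0.97, adjusted p = 0.0888). In that comparison 0.0602% of probe sets passed in either direction, 0.0172% upward and 0.043% downward. Leaving out the library E2 1 gave an adjusted p of 0.0106 for cyp1a, and leaving out TCDD 1 gave 0.00713.

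For TCDD against DMSO by title, cyp1a differed by 1.7 (SE 1.48, adjusted p = 0.754) and the bright cyp1c1 probe set by 1.43 (SE 1.17, adjusted p = 0.739). No probe set passed there by limma (0.0%, with 1114 at an unadjusted p under 0.05). The sign rested on TCDD 1, without which the values were -0.94 and -0.57. For E2 against DMSO by title, cyp1a differed by 3.9 (SE 1.48, adjusted p = 0.73), and again no probe set passed by limma (0.0%, with 770 at an unadjusted p under 0.05). Without E2 1 the difference was 6.48 (adjusted p = 0.0185), with 2 high libraries left under the title E2.

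The title comparison that the cyp1 genes follow, E2+TCDD against DMSO, was also fitted in its 6 libraries alone. The rise was 5.79 for cyp1a (SE 0.08, 95% interval 5.61 to 5.98, limma adjusted p = 3.47e-11), 4.69 for the bright cyp1c1 probe set (SE 0.09, 95% interval 4.49 to 4.88) and 4.39 for the middle one (SE 0.19, 95% interval 3.97 to 4.82). Upward calls made up 0.912% of all probe sets, downward calls 0.662% and both together 1.57%. This fit includes the libraries W362B and W365B, which the grouping by number lacks. Its intervals for all 3 probe sets overlap those of E2+TCDD against DMSO by number. The compared groups share DMSO 1, DMSO 2 and E2+TCDD 1. The library DMSO 3 is in both fits too, as DMSO by title and as E2 by number. The overlap is therefore not separate evidence.

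Fold sizes of the genes were compared within pairs of libraries, without a test, because the genes share every library. By number, the log2 rise of the bright cyp1c1 probe set was smaller than that of cyp1a by 1.44 for TCDD over DMSO and by 1.19 for E2+TCDD over E2 in letter C, and by 0.91 and 0.79 in letter B. As plain ratios of signals, cyp1a gave 55.3 and 55.9 in letter C and 63.8 and 52.4 in letter B. The bright cyp1c1 probe set gave 22.7 and 27.5 in letter C and 37.5 and 34.1 in letter B. The ratio of cyp1a was thus the larger in each of the 4 pairs. The denominators of the bright cyp1c1 probe set, 92.6 to 98.4, lay not far above the filter signal of 66.5, against 329.4 to 414.7 for cyp1a. Whether low signals limited the cyp1c1 ratios was not tested. Pairs with the same numbers in both letters may also stem from the same RNA extracts.

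The middle cyp1c1 probe set gave ratios of 15.8 and 43.2 in letter C and 61.2 and 20.5 in letter B. The denominators, 47.0, 33.2, 7.5 and 25.2, all lay below the signal of 66.5 at which the filter on low values was set, and no order was read from these ratios. As differences in log2(signal + 16) the same pairs gave 3.59 and 4.88 in letter C and 4.34 and 3.69 in letter B. The rise in TCDD against DMSO by number was 4.86 with a constant of 1 and 2.87 with 64, against 5.89 and 5.66 for cyp1a. The dim probe set gave ratios of 1.79 and 7.61 in letter C and 1.43 and 1.81 in letter B, and fitted without the filter it passed neither for TCDD against DMSO by number (0.56, SE 0.35, limma adjusted p = 0.717) nor for E2+TCDD against E2 (1.4, SE 0.35, adjusted p = 0.175).

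**Figure D3:**
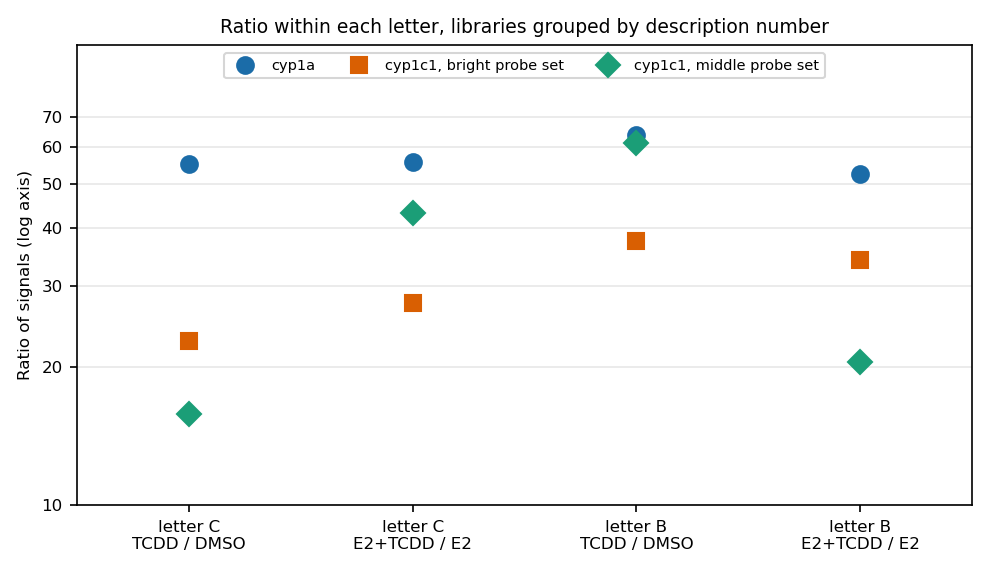
Ratio of signals (log axis) of each tested probe set in 4 pairs of libraries that share a letter, grouped by description number. Points for cyp1a lie between 52.4 and 63.8 and those for the bright cyp1c1 probe set between 22.7 and 37.5, while those of the middle one, from 15.8 to 61.2, rest on denominators below the filter value.

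Spread was described by the coefficient of variation, also with each library left out in turn, a step added after the values were seen. Over the 4 libraries given TCDD by number the signal of cyp1a was 21739 ± 996 (SD, n = 4), a coefficient of variation of 4.58%, compared with 24.3% for the bright cyp1c1 probe set and 56.7% for the middle one. Without E2+TCDD 1 these were 1.6%, 27.1% and 26.3%. Within letter C they were 6.59%, 13.9% and 44.7%, and within letter B 2.08%, 9.57% and 8.39% (n = 2 each). Among the 3 tested probe sets cyp1a thus had the lowest value in each of these sets, while the order of the cyp1c1 ones changed. The untested dim cyp1c1 probe set gave 19.7% over the 4 libraries and 20.6% without E2+TCDD 1. It gave 22.6% within letter B and 4.8% within letter C, where it was lower than cyp1a. In the 4 libraries without TCDD by number the order differed, with 10.4% for cyp1a, 2.76% for the bright cyp1c1 probe set and 58.4% for the middle one, or 4.65%, 0.981% and 31.4% without DMSO 2. The libraries titled E2+TCDD gave 6.96% for cyp1a, 8.89% for the bright cyp1c1 probe set and 53.9% for the middle one (n = 3), but 4.55%, 0.75% and 9.41% without E2+TCDD 1. The highest signal of any probe set on an array was between 41009.6 and 49748.4, and whether probes of cyp1a were saturated was not tested.

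Because the letters differed for cyp1c1, a term for a different TCDD response in each letter was added to the 8 libraries by number after the signals had been seen. The response in letter B minus that in letter C was 0.05 for cyp1a (95% interval -0.25 to 0.35) and 0.52 for the bright cyp1c1 probe set (0.1 to 0.95, limma unadjusted p = 0.0194, adjusted p = 0.975). It was -0.22 for the middle one (-1.0 to 0.56). None passed, as with every other probe set (0.0%, with 567 at an unadjusted p under 0.05), and the probe sets of cyp1c1 had opposite signs.

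A further probe set that shares the cluster number in the identifier of the cyp1a probe set had the same high and low libraries, although the annotation assigns it to mpx, the myeloperoxidase gene of neutrophils. Its signals were 40.3 (DMSO 1), 33.5 (E2 1), 1203.5 (TCDD 1) and 800.3 (E2+TCDD 1) in letter C. In letter B, DMSO 2, DMSO 3, E2 2 and E2 3 gave 29.7, 25.8, 965.2 and 929.2, and TCDD 2, TCDD 3, E2+TCDD 2 and E2+TCDD 3 gave 5.4, 29.7, 803.8 and 825.7. TCDD against DMSO by number gave a rise of 4.43 (SE 0.18, limma adjusted p = 4.59e-10). Its low libraries, at most 40.3, all lay below the filter signal of 66.5. It thus passed the filter through its high libraries, and the p-value is not separate support. The other 3 probe sets of that cluster number, also assigned to mpx, showed no such split: they lay between 95.9 and 198.3, between 24.2 and 164.2 and between 1.2 and 16.2. Which transcript this probe set reads was not tested.

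Of the remaining cyp1 genes, cyp1d1 had 1 probe set, too dim to test. Its signal ranged from 24.4 in TCDD 2 to 116.2 in E2+TCDD 1, and by number it was 51.15 ± 13.1 under DMSO, 31.95 ± 8.27 under TCDD and 95.2 ± 29.7 under E2+TCDD (SD, n = 2 each). Libraries with high cyp1a thus held both low and high values of cyp1d1. No probe set carried the symbol cyp1b1 or cyp1c2, and these genes were not analysed here.

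Among the genes of AHR signalling, 7 of 13 listed were tested, with 1 probe set per gene. In TCDD against DMSO by number 3 rose, 0 fell and 4 did not pass, and the median difference was 0.42 against -0.01 over all probe sets tested, of which 1.28% rose and 0.378% fell. The genes that rose were tiparp, an AHR target that limits the receptor (0.98, SE 0.11, limma adjusted p = 2.10e-04), the receptor gene ahr2 (0.81, SE 0.16, adjusted p = 0.0144) and nqo1, a quinone reductase gene (0.42, SE 0.1, adjusted p = 0.0496). In E2+TCDD against E2 by number, where 0.43% of all probe sets rose, 1 passed, tiparp, with a rise of 1.39 (SE 0.11, adjusted p = 3.50e-06), and ahr2 differed by 0.25 (SE 0.16, adjusted p = 0.769). By title with all 12 libraries, 0 of 7 passed in TCDD or in E2+TCDD against DMSO, where 0.0% and 0.0602% of all did. In the 6 libraries titled DMSO or E2+TCDD the same 3 genes rose and 0 fell, where 0.912% of all rose and 0.662% fell.

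Other P450 genes with a probe set numbered 46, of which 29 were tested. By number TCDD against DMSO gave 2 rises, 1 fall and 26 that did not pass, beside 1.28% of all probe sets rising and 0.378% falling, with a median of 0.08 against -0.01 over all. The gene cyp3a65, a drug-metabolising P450 of liver and gut, rose by 1.97 (SE 0.15, adjusted p = 9.65e-07), and cyp24a1, the vitamin D 24-hydroxylase, by 0.9 (SE 0.17, adjusted p = 0.0145). The fall was in cyp2k18 (-0.91, SE 0.19, adjusted p = 0.0218), which did not pass in E2+TCDD against E2 (-0.73, SE 0.19, adjusted p = 0.134). It did not follow cyp1a, since TCDD 2 (142.6) and TCDD 3 (61.6) were low for both genes. The other libraries with low cyp1a had 187.9 to 274.8. In E2+TCDD against E2, where 0.43% of all rose, cyp3a65 alone passed (1.84, SE 0.15, adjusted p = 2.34e-06), with cyp24a1 at 0.77 (adjusted p = 0.0662). The signal of cyp3a65 was 2220.1 in TCDD 1 and 2822.2 in E2+TCDD 1 against 723.8 in DMSO 1 and 814.6 in E2 1. By title with all 12 libraries, 0 of 29 genes passed in TCDD or in E2+TCDD against DMSO, where 0.0% and 0.0602% of all did. There cyp3a65 differed by -0.16 and 1.86 (SE 0.6 each). In the 6 libraries titled DMSO or E2+TCDD cyp3a65 rose and cyp2k18 fell, where 0.912% of all rose and 0.662% fell.

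Genes that serve P450 enzymes, as electron donors or in haem supply, had 12 of 25 tested. In TCDD against DMSO by number 2 rose, 0 fell and 10 did not pass, with a median of 0.07 against -0.01 over all probe sets, of which 1.28% rose. The same 2 passed in E2+TCDD against E2, where 0.43% of all rose. They were cyb5a, a cytochrome b5 that passes electrons to P450s (1.17 and 1.18, SE 0.11 each, adjusted p = 2.69e-05 and 2.49e-05), and alas1, the first enzyme of haem synthesis outside red cells (0.72 and 0.47, SE 0.09 each, adjusted p = 2.36e-04 and 0.0113). The signal of alas1 was between 5995.1 and 7422.2 in the 6 libraries with high cyp1a and between 3483.7 and 4788.2 in the others. The P450 reductase gene pora, which supplies electrons to microsomal P450s, differed by -0.13 (SE 0.18, adjusted p = 0.866) and -0.05 (SE 0.18, adjusted p = 0.973). By title with all 12 libraries, 0 of these 12 genes passed in TCDD or in E2+TCDD against DMSO, where 0.0% and 0.0602% of all did. There cyb5a differed by -0.02 and 1.13 (SE 0.39 each). In the 6 libraries titled DMSO or E2+TCDD cyb5a and alas1 rose and 0 genes fell, where 0.912% of all rose and 0.662% fell.

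Likeness to the cyp1 genes was measured by setting the lowest library of each probe set to 0 and its highest to 1 and averaging the absolute difference over the 12 libraries, for 1325 named probe sets with a range of at least 1 log2 unit. The measure describes these libraries and takes no account of how far a gene moved. Nearest to cyp1a was the bright cyp1c1 probe set (0.046), followed by the sulfotransferase gene sult6b1 (0.071), tiparp (0.081), that mpx-annotated probe set (0.088), cyb5a (0.114), the middle cyp1c1 probe set (0.13), si:ch211-237l4.6 (0.133) and nt5c2l1 (0.135). The median over all candidates was 0.454. The 8 nearest to the bright cyp1c1 probe set were led by cyp1a (0.046) and tiparp (0.071).

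The nearest to the middle cyp1c1 probe set were a probe set of the chaperone gene hsp90aa1.2 (0.077), gchfr (0.089), tiparp (0.091), a further hsp90aa1.2 probe set (0.094), hsp70.3 (0.099), the mpx-annotated probe set (0.105), the chemokine gene ccl44 (0.11) and the monoamine oxidase gene mao (0.112), against a median of 0.367. Both cyp1a (0.13) and the bright probe set of the same gene (0.131) were farther away than these. The scale of the middle probe set ran from 7.5 in DMSO 2, below the filter signal, to 1433.2 in E2+TCDD 1. Its other high libraries lay between 0.729 and 0.844 and its other low ones between 0.134 and 0.239. Its distances thus depend on those end values, and no likeness in regulation was read from them.

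**Figure D4:**
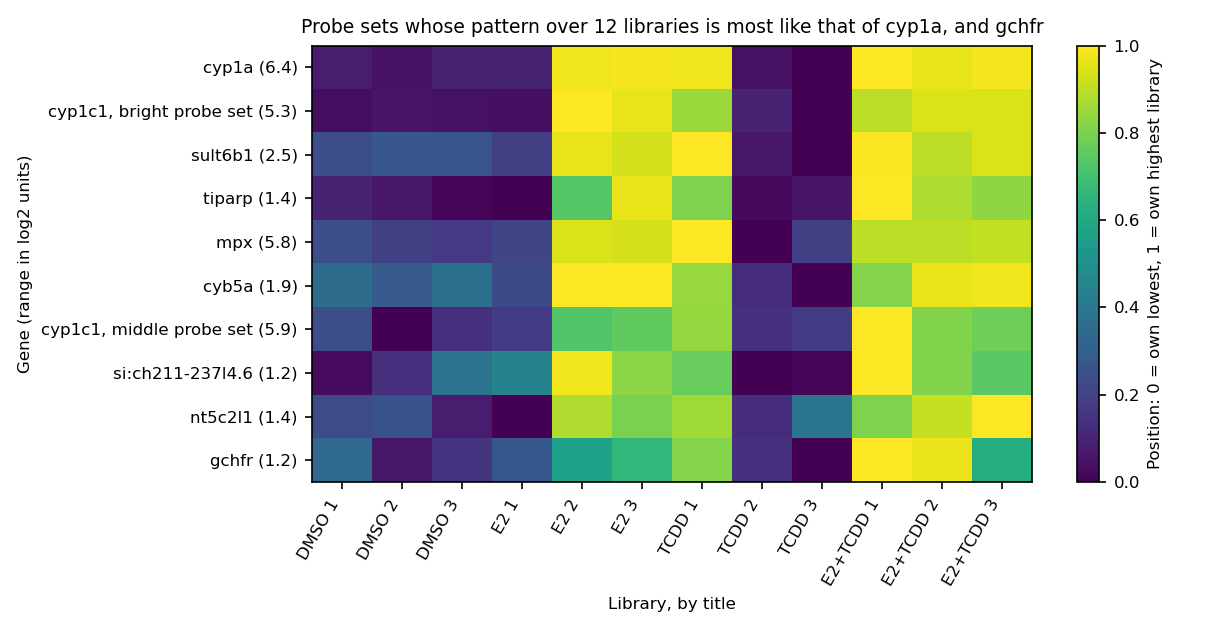
Position of each library between the lowest (0, dark blue) and the highest (1, yellow) library of a probe set, for cyp1a, the 8 probe sets most like it and gchfr, with the range of each in log2 units in parentheses. Rows lie nearest to yellow in E2 2, E2 3, TCDD 1 and the E2+TCDD libraries, with ranges from 1.2 for gchfr to 6.4 for cyp1a.

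The gene gchfr, which encodes the feedback regulator of GTP cyclohydrolase I, follows cyp1c1 and cyp1c2 in the gene order of the RefSeq assembly GRCz12tu. It was looked at for that reason after the likeness values had been seen, together with the 5 protein-coding genes on either side of cyp1c1 and of cyp1a. Its signal was 1048.9 in TCDD 1 and 1221.6 in E2+TCDD 1 against 711.4 in DMSO 1 and 673.4 in E2 1. In letter B it lay between 860.2 and 1190.9 where cyp1a was high and between 535.9 and 609.2 where cyp1a was low. By number it rose by 0.57 (SE 0.12, limma adjusted p = 0.0194) for TCDD against DMSO and by 0.72 (SE 0.12, adjusted p = 0.00519) for E2+TCDD against E2. Because its likeness over these same libraries was already known, its p-values are not separate support.

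Of 10 neighbours of cyp1c1, 3 were tested, and dnajc17 (0.08, SE 0.24, adjusted p = 0.949) and inf2 (0.17, SE 0.2, adjusted p = 0.844) did not pass in TCDD against DMSO by number. Of 10 neighbours of cyp1a 1 was tested, cox5ab, a cytochrome c oxidase subunit gene (-0.05, SE 0.1, adjusted p = 0.9). The rise of gchfr was thus far below that of cyp1c1, and neither of the tested genes beyond it passed.

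In whole larvae, more cells of a type and more RNA per cell cannot be told apart. Of 40 marker genes for 10 tissues 28 were tested, with at least 1 in each tissue; only kdrl and tie1 stood for endothelium. By number the summed signal of 4 liver markers was 38716 to 48110 without TCDD and 40033 to 44657 with it, and that of the endothelial pair was 512 to 580 and 491 to 567. In both tissues the groups overlapped. The heart pair, myl7 and cmlc1, gave 1182 to 1619 without TCDD and 990 to 1196 with it, so its groups overlapped only narrowly. Neither heart marker passed in TCDD against DMSO or E2+TCDD against E2 by number. In TCDD against DMSO by number 1 of 4 tested liver markers and 1 of 3 gut markers fell, 0 of either rose, and neither endothelial marker passed, where 0.378% of all probe sets fell. In E2+TCDD against E2 by number 0 of 4 liver markers and 1 of 3 gut markers fell, where 0.267% of all did. The part of these markers in the results was not tested. The median correlation of log2 signals was 0.984 within a letter and 0.974 between letters.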

How the data were processed

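Each of 12 libraries of larval RNA was measured on 1 array. The authors' deposited table holds MAS5 signal (linear intensity, 1 value per probe set); the submitters' processing notes name MAS5 and Affymetrix Expression Console without versions. Trimmed means (2% removed at each end) deviated from their median of 500.1 by no more than 0.00225%, so no further scaling was applied. Values entered the fits as log2(signal + 16), which understates changes of low signals. Of 15617 probe sets, 115 controls were set aside; of the rest 10795 had 1 symbol, 135 several and 4572 none. Entrez IDs of 10711 matched RefSeq, which changed 1 symbol. Probe sets below the 25th percentile of mean log2 signal were dropped.

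Fits used limma 3.58.1 in R 4.3.3 (lmFit, then eBayes with trend), with terms for group and letter, two-sided, and Benjamini-Hochberg adjustment over 11626 probe sets at a threshold of 0.05; each adjusted p is limma's. The code was tested on simulated data. Lists took the brightest probe set of each gene. Members, lists, groupings and the rule for named genes (members, other cyp1 genes, probe sets with a shared cluster number, genes of the lists, the 8 nearest by likeness, and cyp19a1b) were chosen with earlier results of these data known. Alternatives were pseudocounts of 1 and 64, no filter or the 50th percentile, quantile normalisation, no letter term, the replicate number as a block, no variance trend, and each library left out. Array values carry no counts, so the number of arrays limits the precision.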

Additional observations from a re-analysis of the deposited data

How the results depend on the processing

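The rises of cyp1a and of the bright and middle cyp1c1 probe sets under TCDD or E2+TCDD, by number and in the 6 libraries, passed under each alternative that gave a value; the middle one was not tested at the 50th percentile filter. For TCDD against DMSO by number, cyp1a ranged from 5.66 to 5.89 across settings and from 5.75 to 5.91 without 1 library, the bright probe set from 4.16 to 4.85 and from 4.32 to 4.99, and the middle one from 2.87 to 4.86 (adjusted p up to 0.0446) and from 3.65 to 4.28.

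By title with 1 library left out, E2+TCDD against DMSO gave 5.73 to 5.9 for cyp1a and 4.64 to 4.78 for the bright probe set, and passed without E2 1 (adjusted p = 0.0106 and 0.00854) or TCDD 1 (0.00713 and 0.00783). TCDD against DMSO gave -0.94 to 2.83 and -0.57 to 2.36, negative without TCDD 1. E2 against DMSO gave 2.86 to 6.48 and 2.41 to 5.4, the highest and past the threshold without E2 1 (0.0185 and 0.0113).

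Values near 0 changed sign, and none passed. By number without 1 library, E2 against DMSO ran from -0.22 to 0.17 for the bright probe set and from -0.24 to 0.69 for the middle one, and E2+TCDD against TCDD from -0.29 to 0.38 for the bright one. The interaction ran from -0.27 to 0.4 and from -0.14 to 0.78, and the letter difference from -0.05 to 0.15 for cyp1a and from -0.8 to 0.36 for the middle probe set. With a pseudocount of 1 the middle one gave -0.01 for the interaction and 0.36 for the letter difference. The causes were not tested.

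Counts of calls over all probe sets moved more. Against 193, 136, 81 and 183 (TCDD and E2+TCDD against DMSO and E2+TCDD against E2 by number, then the 6 libraries), there were 14, 17, 15 and 23 without the letter term and 37, 33, 21 and 46 without the variance trend, and 44 to 180, 32 to 158, 25 to 101 and 58 to 181 without 1 library. The 7 calls by title became 0 without the letter term or the trend, and 0 to 166 without 1 library. The counts of 0 by title became up to 5 for TCDD and up to 30 for E2 against DMSO without 1 library. The 2 calls of E2 against DMSO by number became 5 without the filter, 1 at the 50th percentile or without the trend, and 0 without the letter term; the 1 call of E2+TCDD against TCDD became 0 at the 50th percentile or without the letter term, and 0 to 10 without 1 library. The interaction had 2 with a pseudocount of 64 and 0 to 4 without 1 library, and the letter difference up to 41 without 1 library.

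Of 18 pairs of libraries that share a replicate number, 0 correlated above 0.1 once the letter was fitted. That count cannot decide whether the replicate number is a pairing. Fitting the letter centres the libraries of each letter, which lowers correlations among them, and the letter C libraries all share a replicate number. With the replicate block, E2 against DMSO by number turned to 0.11 for the bright probe set, and counts were 185, 75, 93 and 110 in the order above, 3 for E2+TCDD against TCDD and 2 for the interaction. The block and the model without a letter term were not run for the letter difference. Dim signals limit what the middle and dim cyp1c1 probe sets can show. The low libraries of the bright one, from 78.2 to 118.3, lay above the filter signal of 66.5, though not far from it.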
